A study of Homo sapiens with 9 samples.

Results

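Antisense RNAs are transcripts read from the strand opposite a named gene, and they were followed here across a knockdown of KMT2C in VCaP cells. The members are the genes whose name ends in AS and a digit after a hyphen and whose FPKM, a read level corrected for transcript length and sequencing depth, reached 1 in at least 3 of the 9 libraries. They were thus chosen by name and by their measured FPKM, with no group named in the rule. EPB41L4A-AS1 was left out by the rule. Of 1439 antisense-named genes in a table of 60612 genes, 920 had a count above 0 and 121 were members. The gene named before the hyphen was taken as the sense gene, which 119 members had under that name and 2 under a newer symbol (FAM198B-AS1 with GASK1B, RPARP-AS1 with C10orf95). These were 119 distinct sense genes, because PAXIP1 and MNX1 each had 2 antisense members, and 99 of them passed the same level filter while 20 did not. VCaP is an established human prostate cancer line. All cells were transfected with an siRNA for 4 days: a control siRNA (KMT2C normal, per the labels), KMT2C siRNA 1 or KMT2C siRNA 2, with 3 libraries of total RNA per group. Control cells carry the transfection and an siRNA too, so the comparisons are between siRNAs and no untransfected cells were analysed here.

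An antisense RNA can start near the sense gene's own start and run away from it, lie inside the gene, or run in from beyond its far end. Such RNAs are often short-lived nuclear transcripts that the RNA exosome degrades, and some are stable, spliced long noncoding RNAs. Where both strands are read, the polymerases meet on the same DNA, and the 2 RNAs can pair where their exons overlap. KMT2C encodes a methyltransferase of histone H3 lysine 4, known for marking enhancers together with its relative KMT2D.

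The promoter windows of 7 antisense RNAs are shown first, taken from the pairs described below. No comparison with the sense genes uses these sequences, and their part in the changes was not tested. In SLC25A25-AS1, FBXL19-AS1, FAM222A-AS1, GATA2-AS1 and RAB11B-AS1 the antisense RNA was higher with siRNA 2 while the sense gene was lower, and in ADIRF-AS1 and B3GALT5-AS1 both were lower. The sequences are RefSeq's, on GRCh38.p14, written 5′ to 3′ on the antisense RNA's own strand, from 250 bases before to 50 bases after its RefSeq start. For B3GALT5-AS1 only the 167 bases outside annotated untranslated regions are given. Capitals mark matches, on either strand, to 4 short motifs. The GC box was searched as GGGCGG. The box of factor NF-Y was searched as CCAAT. The TATA box was searched as TATAAA, and the core of ETS factor sites as GGAAGT.
The windows are at chr9:128118685-128118984 on the minus strand for SLC25A25-AS1, chr16:30923220-30923519 on the minus strand for FBXL19-AS1, chr12:109773438-109773737 on the minus strand for FAM222A-AS1, chr3:128488953-128489252 on the plus strand for GATA2-AS1, chr19:8390642-8390941 on the minus strand for RAB11B-AS1, chr10:86971191-86971490 on the minus strand for ADIRF-AS1 and chr21:39612773-39612939 on the minus strand for B3GALT5-AS1.
SLC25A25-AS1: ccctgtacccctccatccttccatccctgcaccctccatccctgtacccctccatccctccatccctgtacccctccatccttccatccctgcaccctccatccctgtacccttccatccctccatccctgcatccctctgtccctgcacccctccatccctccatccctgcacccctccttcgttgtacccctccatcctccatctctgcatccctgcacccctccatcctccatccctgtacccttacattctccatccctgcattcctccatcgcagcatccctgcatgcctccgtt
FBXL19-AS1: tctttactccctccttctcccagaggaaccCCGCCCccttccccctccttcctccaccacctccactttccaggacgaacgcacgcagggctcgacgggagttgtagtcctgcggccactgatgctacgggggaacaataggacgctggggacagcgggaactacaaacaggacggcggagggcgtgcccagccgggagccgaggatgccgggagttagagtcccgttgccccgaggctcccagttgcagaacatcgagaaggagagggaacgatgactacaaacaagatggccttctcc
FAM222A-AS1: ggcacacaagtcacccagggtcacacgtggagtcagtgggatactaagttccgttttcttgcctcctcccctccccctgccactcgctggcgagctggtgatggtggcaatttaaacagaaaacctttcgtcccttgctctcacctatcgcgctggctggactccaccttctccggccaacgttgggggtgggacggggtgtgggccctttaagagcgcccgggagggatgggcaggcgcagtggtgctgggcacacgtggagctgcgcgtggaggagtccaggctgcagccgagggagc
GATA2-AS1: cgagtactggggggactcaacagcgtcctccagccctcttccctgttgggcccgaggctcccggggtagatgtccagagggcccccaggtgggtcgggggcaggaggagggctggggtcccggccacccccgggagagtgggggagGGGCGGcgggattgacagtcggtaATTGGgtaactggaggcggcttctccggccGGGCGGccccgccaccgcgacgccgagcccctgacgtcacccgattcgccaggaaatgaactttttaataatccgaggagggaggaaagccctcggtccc
RAB11B-AS1: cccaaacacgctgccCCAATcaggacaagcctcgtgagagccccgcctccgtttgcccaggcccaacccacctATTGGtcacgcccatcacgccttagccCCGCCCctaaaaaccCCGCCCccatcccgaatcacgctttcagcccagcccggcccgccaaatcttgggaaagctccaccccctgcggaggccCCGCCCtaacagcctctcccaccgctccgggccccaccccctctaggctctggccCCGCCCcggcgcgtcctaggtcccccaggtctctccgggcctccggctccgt
ADIRF-AS1: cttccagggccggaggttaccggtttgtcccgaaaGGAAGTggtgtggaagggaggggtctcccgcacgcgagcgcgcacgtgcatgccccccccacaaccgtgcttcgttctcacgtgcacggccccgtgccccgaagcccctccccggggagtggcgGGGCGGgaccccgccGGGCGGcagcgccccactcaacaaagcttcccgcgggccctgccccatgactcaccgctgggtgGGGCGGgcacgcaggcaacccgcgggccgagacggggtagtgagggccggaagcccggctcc
B3GALT5-AS1: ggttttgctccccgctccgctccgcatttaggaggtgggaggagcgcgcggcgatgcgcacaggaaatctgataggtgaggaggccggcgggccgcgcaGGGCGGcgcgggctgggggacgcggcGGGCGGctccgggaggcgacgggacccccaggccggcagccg

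GGGCGG matched once in the FBXL19-AS1 window, 2 times each in those of GATA2-AS1 and B3GALT5-AS1, 3 times in that of ADIRF-AS1 and 4 times in that of RAB11B-AS1. CCAAT matched once for GATA2-AS1 and 2 times for RAB11B-AS1, GGAAGT once for ADIRF-AS1, and TATAAA in none of the 7. The SLC25A25-AS1 and FAM222A-AS1 windows held none of these letters. None of the 4 motifs overlaps another in these windows. RefSeq windows were found for 89 of the 121 members. GGGCGG occurred in 51.7% of those 89 windows and in 45.0% of all 35116 RefSeq promoter windows, CCAAT in 33.7% and 34.6%, GGAAGT in 12.4% and 22.8%, and TATAAA in 6.74% and 11.5%. The members' windows held a median of 23 CpG dinucleotides against 14 in all windows. Members were chosen by their FPKM and the set of all windows was not, so neither these medians nor the motif shares are matched for expression level. SLC25A25-AS1, with 3 CpG in a window of recurring pyrimidine-rich letters, stood at the low end, beside RAB11B-AS1 with 23, GATA2-AS1 with 24 and ADIRF-AS1 with 33.

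The library totals ranged from 58462215 to 70726213 estimated counts. KMT2C stood at 13.7, 12.1 and 12.9 FPKM under control siRNA, 1.54, 1.8 and 2.28 with siRNA 1, and 1.72, 1.64 and 1.73 FPKM with siRNA 2. All 6 knockdown libraries lay below control, with log2 changes of -2.81 ± 0.13 (adjusted p = 4.56e-06) and -2.98 ± 0.13 (adjusted p = 8.76e-07). All 8 prostate and VCaP markers reported here (KLK3, KLK2, TMPRSS2, ERG, HOXB13, FOXA1, KRT8, KRT18) were present. Summed, they reached 1390 to 1500 FPKM in control cells, 664 to 692 with siRNA 1 and 524 to 549 with siRNA 2. KLK2 held the largest share of these sums, with group means of 828, 294 and 212 FPKM. KLK3, TMPRSS2, ERG and KRT8 were also lower with both siRNAs. The others moved less evenly: HOXB13 means were 195, 174 and 89.5 FPKM, FOXA1 125, 89.6 and 116, and KRT18 40.9, 42.2 and 24.5. Of 9 markers of leukocytes, endothelium, fibroblasts, basal and neuroendocrine cells, 8 stayed below 1 FPKM in every library, and SYP, a synaptic vesicle gene, exceeded it in 8 of 9. Their sums were 2.0 to 2.27, 0.828 to 1.6 and 1.81 to 2.24 FPKM. KRT5 was listed at 0 in all control and siRNA 2 libraries. The summed prostate markers moved with the groups, and their part in the results on antisense RNAs was not tested. In bulk RNA, fewer cells making an RNA and less of it per cell cannot be told apart.

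The members were mostly low. Their mean FPKM over the 9 libraries had a median of 1.66 and ranged from 0.622 for B3GALT5-AS1 to 20.4 for FGD5-AS1, and 92 of the 121 lay below the level of their sense gene. All 9 libraries reached 1 FPKM for 62 members. The threshold itself separated close values: the third highest FPKM was 1.0 for LAMC1-AS1 and 1.01 for BRWD1-AS2, both inside, and 0.988 for ACVR2B-AS1 and 0.975 for SBF2-AS1, both outside. There were 12 members that reached it in libraries of 1 group only, 5 through the control cells, 3 through siRNA 1 and 4 through siRNA 2. Such a member had to differ between groups to be chosen. Of the genes named below these are B3GALT5-AS1, ADIRF-AS1, RNF32-AS1 and TMEM202-AS1 (control) and FBXL19-AS1, DLX6-AS1 and SEMA6A-AS1 (siRNA 2). THAP7-AS1, MELTF-AS1, VLDLR-AS1 and PANK2-AS1 reached it in no control library, GAS5-AS1 in no siRNA 1 library, and the sense gene B3GALT5 in control libraries alone. The changes of all these genes against such a group are given as a description, without a p.

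By position, 44 members overlapped the sense gene at the 5′ ends of both, 28 lay inside it, 25 overlapped it at the 3′ ends, 17 diverged from it without overlap and 7 spanned it. The 5′ end of 66 members was within 1000 bp of a start of the sense gene. Exonic bases on the opposite strand were shared with the sense gene by 87 members, over a median of 13.7% of their exonic length, and 34 shared none. Whether the counting used strand is not given in the sources used here, so reads in shared exonic bases cannot be told apart between the 2 strands. Counts are therefore also given for pairs that share no exonic base.

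With siRNA 1, 50 of the 121 antisense RNAs were called at an adjusted p under 0.05 (edgeR quasi-likelihood test), 31 higher and 19 lower, or 41.3% against 41.7% of all 12830 tested genes. With siRNA 2, 61 were called, 36 higher and 25 lower, or 50.4% against 49.3% of all tested genes. Higher calls made up 25.6% of members with siRNA 1 and 29.8% with siRNA 2, beside 21.2% and 24.4% over all genes, and lower calls 15.7% and 20.7%, beside 20.5% and 24.9%. The median log2 change of the members was 0.18 and 0.21, and that of all tested genes 0.01 and 0.02. The shares called were thus near those of the whole table. Without the 12 members that reached the threshold in 1 group, 41 and 53 were called, an alternative chosen after seeing the data. The shares over all genes keep genes of that kind, so they are no match for these 2 counts. The splits by direction here, and the counts with both siRNAs, were taken over all 121 members, those 12 included. Against the same control libraries, 31 members were called in the same direction with both siRNAs, 20 higher and 11 lower, which is 25.6% against 25.9% of all genes. The FPKM values of knockdown and control libraries did not overlap for 68 members with siRNA 1 (56.2%, against 53.1% of all genes) and for 82 with siRNA 2 (67.8%, against 62.8%). Among 43 tested genes named as intergenic noncoding RNAs (LINC), 13 were called with siRNA 1 (30.2%) and 24 with siRNA 2 (55.8%).

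**Figure D1:**
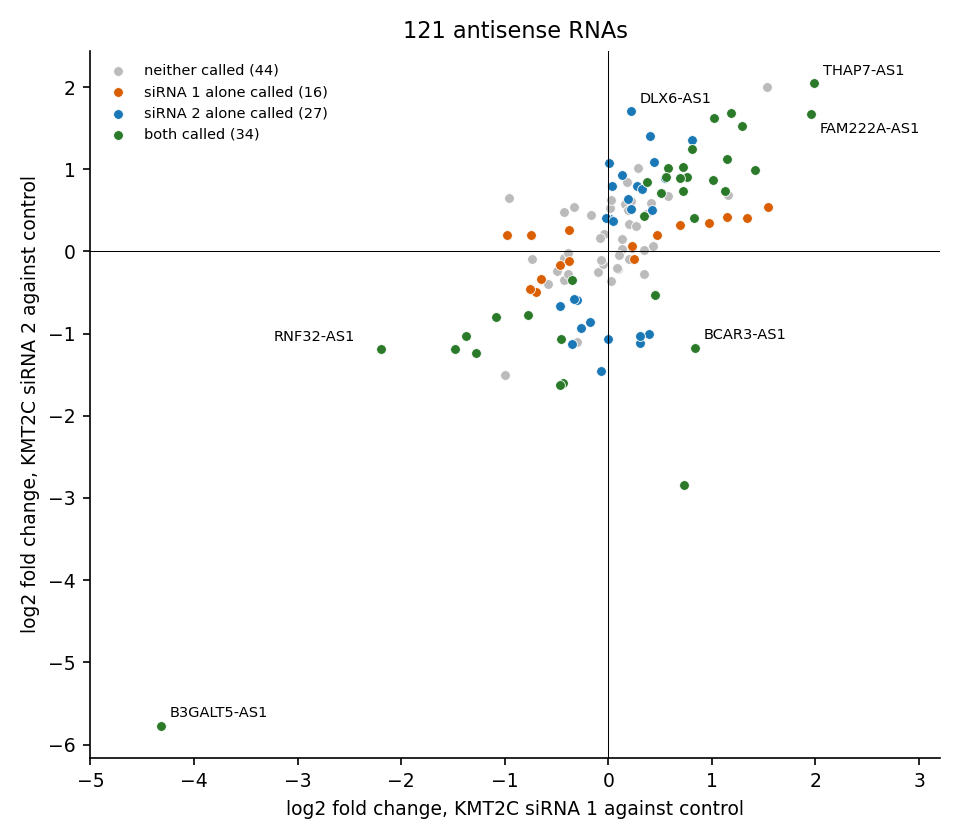
Log2 fold change of each of the 121 antisense RNAs with KMT2C siRNA 1 (horizontal) and KMT2C siRNA 2 (vertical) against the same control libraries, 1 point per RNA, coloured by which comparison was called. B3GALT5-AS1 lies far below the others at -4.32 and -5.77, THAP7-AS1 at 1.99 and 2.05, and BCAR3-AS1 at 0.84 and -1.17.

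Among the RNAs called higher with both siRNAs, THAP7-AS1 had the largest log2 change. It lies on chromosome 22 (21001886 to 21010125, plus strand, GRCh38) and overlaps the 5′ end of THAP7, a zinc finger protein gene, with 10.5% of its exonic bases shared. THAP7-AS1 stood at 0.323, 0.15 and 0.238 FPKM under control siRNA, 1.01, 0.941 and 0.959 with siRNA 1, and 0.928, 1.07 and 1.11 with siRNA 2. Every knockdown library lay above every control library. The log2 change was 1.99 ± 0.26 (SE) with siRNA 1 and 2.05 ± 0.26 with siRNA 2, from 170 counts in all 3 control libraries together. The sense gene THAP7 held 9.62, 7.93 and 9.66 FPKM in control cells, and its changes of -0.04 and -0.15 were not called.

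FAM222A-AS1 (chromosome 12, 109734166 to 109773508, minus strand) runs in over the 3′ end of FAM222A and shares no exonic base with it. Its FPKM was 1.04, 1.05 and 0.497 in control cells, 3.3, 2.96 and 4.03 with siRNA 1, and 2.43, 2.79 and 3.33 with siRNA 2. Knockdown libraries all lay above control, the 2 siRNAs overlapped, and control replicate 3 was the lowest library. FAM222A-AS1 rose by 1.96 ± 0.3 on the log2 scale with siRNA 1 (adjusted p = 0.000975) and by 1.67 ± 0.29 with siRNA 2 (adjusted p = 0.00161). FAM222A itself had 5.67, 4.59 and 6.56 FPKM in control cells and 3.59, 4.39 and 4.48 with siRNA 2. That sense gene fell by 0.49 ± 0.16 with siRNA 2 (adjusted p = 0.034), a call lost under 8 alternatives. Among them were leaving out control replicate 1 (adjusted p = 0.072), control replicate 3 (0.117), siRNA 2 replicate 1 (0.111) or siRNA 2 replicate 2 (0.0609), and upper quartile scaling (0.0715).

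TMPO-AS1 (chromosome 12, 98512973 to 98516422, minus strand) starts 170 bp from a start of TMPO, which encodes lamina-associated polypeptide 2 of the nuclear envelope. Control libraries gave 1.29, 1.85 and 1.38 FPKM, siRNA 1 libraries 4.19, 4.14 and 4.01, and siRNA 2 libraries 3.2, 3.14 and 2.99. The 3 groups lay apart from one another, with siRNA 1 the highest. TMPO-AS1 rose by 1.42 ± 0.14 (adjusted p = 0.000138) and 0.99 ± 0.14 (adjusted p = 0.000559), and the 2 effects differed by 0.44 ± 0.14 (adjusted p = 0.0389). TMPO, at 37.4, 35.8 and 34.6 FPKM in control cells, was not called with either siRNA (-0.25 and -0.31).

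The other RNAs among the 8 largest rises changed by 0.87 to 1.68 on the log2 scale. MELTF-AS1 went from 0.87, 0.667 and 0.617 FPKM in control cells to 1.87, 1.99 and 1.5 with siRNA 1 and 2.21, 2.3 and 1.94 with siRNA 2, while MELTF, a transferrin family gene, stayed under 1 FPKM throughout. ARHGAP5-AS1, next to a gene for a GTPase-activating protein, was at 0.761, 1.05 and 0.763, then 2.17, 2.16 and 1.53, then 1.7, 2.34 and 1.88 FPKM. VLDLR-AS1 was at 0.598, 0.445 and 0.278, then 1.04, 0.711 and 0.982, then 1.45, 1.36 and 1.43 FPKM. None of these knockdown libraries reached down to a control library of the same RNA. Their smallest log2 changes were 1.29 ± 0.2 for MELTF-AS1, 1.02 ± 0.26 for VLDLR-AS1 and 1.13 ± 0.22 for ARHGAP5-AS1 (adjusted p = 0.00277). VLDLR, the receptor for very low density lipoprotein, rose with siRNA 2 (1.19 ± 0.07, adjusted p = 4.97e-06) and not with siRNA 1 (0.08 ± 0.07), and siRNA 1 minus siRNA 2 was -1.11 ± 0.07 (adjusted p = 1.25e-05). FBXL19-AS1 and TNFRSF10A-AS1, also in this group, are described with their sense genes.

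**Figure D2:**
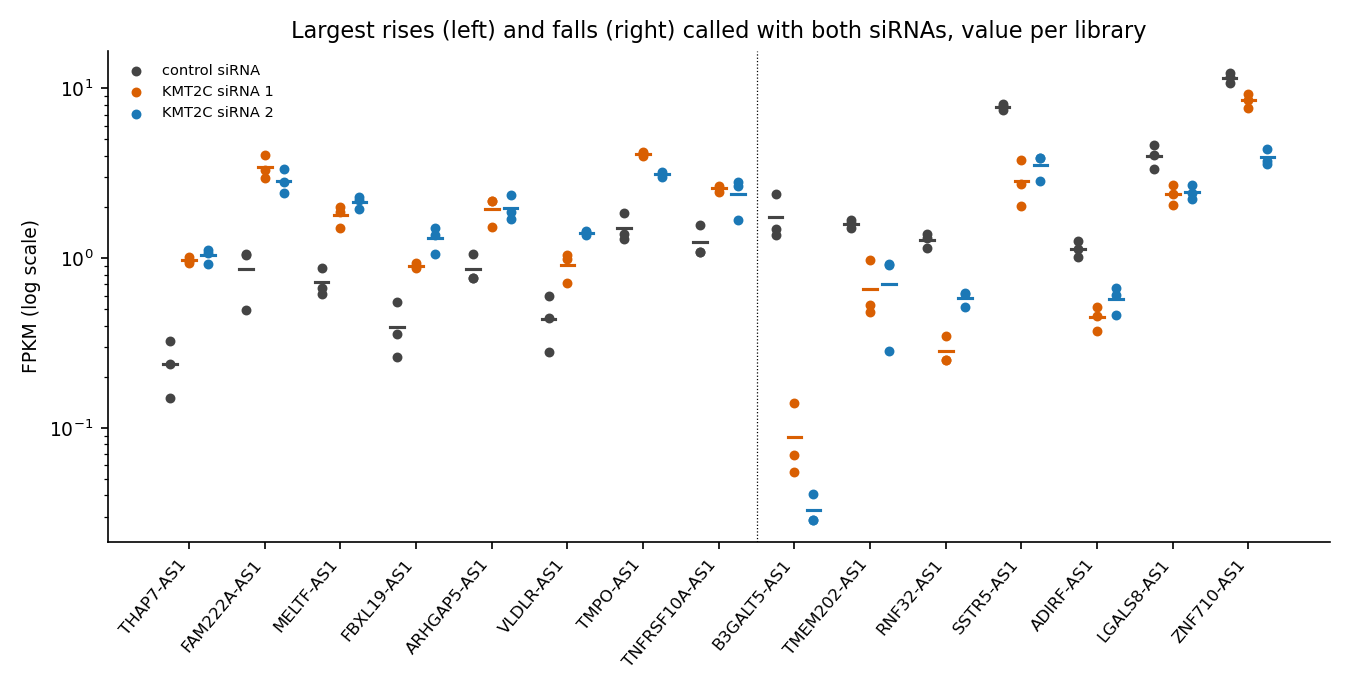
FPKM on a log axis for the 8 antisense RNAs with the largest rises (left) and 7 of the 8 with the largest falls (right) called with both siRNAs, 1 point per library and a bar at each group's mean (n = 3). In all 15 RNAs the knockdown libraries lie outside the range of the control libraries, with the widest gap in B3GALT5-AS1.

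B3GALT5-AS1 (chromosome 21, 39597147 to 39612876, minus strand) was the lowest of all members after knockdown. It lies inside B3GALT5, the gene of a beta-1,3-galactosyltransferase that extends glycan chains, starts 64 bp from one of its annotated starts, and shares no exonic base with it. B3GALT5-AS1 gave 1.37, 1.48 and 2.39 FPKM under control siRNA, 0.0688, 0.055 and 0.14 with siRNA 1, and 0.0288, 0.0405 and 0.0287 with siRNA 2. Control, siRNA 1 and siRNA 2 libraries formed 3 separate ranges, from high to low. The log2 changes were -4.32 ± 0.4, or 20.0-fold lower, and -5.77 ± 0.43, or 54.6-fold lower, from 3185 counts in control cells to 160 and 60.

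SSTR5-AS1 (chromosome 16, 1064093 to 1078707, minus strand) diverges from SSTR5, a somatostatin receptor gene, and starts 74 bp from it. It had 8.05, 7.44 and 7.83 FPKM in control cells, 2.72, 3.76 and 2.04 with siRNA 1 and 3.89, 3.87 and 2.86 with siRNA 2. Knockdown libraries were all below control, and the 2 siRNAs overlapped. SSTR5-AS1 fell by 1.48 ± 0.21 on the log2 scale with siRNA 1 (adjusted p = 0.000746) and by 1.19 ± 0.21 with siRNA 2 (adjusted p = 0.00161). SSTR5 itself, at 2.44, 1.9 and 2.12 FPKM in control cells, was not called (-0.72 ± 0.31, adjusted p = 0.0923, and -0.53 ± 0.31, adjusted p = 0.186), though without siRNA 1 replicate 1 it was with siRNA 1 (-1.1, adjusted p = 0.0162).

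RNF32-AS1 was at 1.31, 1.15 and 1.39 FPKM in control cells, 0.348, 0.251 and 0.251 with siRNA 1 and 0.517, 0.611 and 0.621 with siRNA 2, a log2 change of -2.19 ± 0.19 and -1.19 ± 0.18. TMEM202-AS1 was at 1.68, 1.6 and 1.5, then 0.974, 0.53 and 0.48, then 0.284, 0.923 and 0.906 FPKM, with changes of -1.28 ± 0.44 and -1.23 ± 0.44. The TMEM202-AS1 calls did not hold under 11 alternatives with siRNA 1 and 12 with siRNA 2, with -1.1 without siRNA 1 replicate 3 and -0.85 without siRNA 2 replicate 1. Both sets of knockdown libraries lay under their controls, with siRNA 2 replicate 1 of TMEM202-AS1 far below the other siRNA 2 libraries. Neither sense gene passed the filter: TMEM202 was listed at 0 in all libraries, and RNF32, a ring finger protein gene, ranged from 0.424 to 1.12 FPKM.

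ZNF710-AS1 (chromosome 15, 90074512 to 90082207, minus strand) overlaps the 3′ end of ZNF710, a zinc finger gene, with 27.3% of its exonic bases shared. Its level was 11.7, 12.3 and 10.7 FPKM in control cells, 9.31, 8.52 and 7.64 with siRNA 1, and 3.58, 4.42 and 3.75 with siRNA 2. The 3 groups did not overlap, and siRNA 2 was the lowest. ZNF710-AS1 changed by -0.47 ± 0.11 (adjusted p = 0.0104) and -1.62 ± 0.12 (adjusted p = 9.59e-06), a difference of 1.15 ± 0.11 between the siRNAs (adjusted p = 0.000104). ZNF710 fell with siRNA 2 (-0.48 ± 0.05, adjusted p = 0.000143) and had -0.15 ± 0.05 with siRNA 1 (adjusted p = 0.0515). With relative log expression scaling or DESeq2 that siRNA 1 value was called too (-0.17, adjusted p = 0.0372 and 0.0136).

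Set directly against each other, the 2 siRNAs differed for 37 antisense RNAs (21 higher and 16 lower with siRNA 1), or 30.6% against 39.5% of all tested genes. In 3 members the calls against control were opposite, among them BCAR3-AS1 and ST8SIA6-AS1, the latter named after its values were seen. BCAR3-AS1 (chromosome 1, 93592199 to 93602440, plus strand) lies inside BCAR3, an adaptor protein gene linked to antiestrogen resistance. Values were 4.54, 3.96 and 5.31 FPKM in control cells, 7.59, 8.43 and 9.15 with siRNA 1 and 1.87, 2.18 and 2.29 with siRNA 2. The siRNAs lay on opposite sides of control. The changes were 0.84 ± 0.14 (adjusted p = 0.00164) and -1.17 ± 0.14 (adjusted p = 0.000183). BCAR3 fell with siRNA 2 (-0.55 ± 0.06, adjusted p = 0.000144) and had 0.03 ± 0.06 with siRNA 1, with 5.05, 5.13 and 5.32 FPKM in control cells and 3.67, 3.56 and 3.75 with siRNA 2.

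DLX6-AS1, a long noncoding RNA that spans the homeobox gene DLX6, was at 0.418, 0.408 and 0.26 FPKM in control cells, 0.391, 0.486 and 0.408 with siRNA 1, and 1.29, 1.26 and 1.14 with siRNA 2. Only the siRNA 2 libraries stood apart, and DLX6 had 4.08, 2.77 and 3.26 FPKM there against 0.657, 1.34 and 1.85 in control cells. DLX6 rose with siRNA 2 (1.33 ± 0.33, adjusted p = 0.01), and its siRNA 1 value of -0.33 ± 0.33 was called only without control replicate 1 (-0.65, adjusted p = 0.0411). SEMA6A-AS1, inside the gene of the axon guidance protein semaphorin 6A, was likewise at 0.613, 0.69 and 0.441, then 0.478, 0.655 and 0.664, then 1.4, 1.34 and 1.1 FPKM. SEMA6A rose with siRNA 2 (0.7 ± 0.13, adjusted p = 0.00231), and the difference of the siRNA effects on it was -0.82 ± 0.13 (adjusted p = 0.0015).

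In 3 further members that differed between the siRNAs, the sense gene was not called in the direction of the antisense RNA. DGUOK-AS1 had 1.95, 1.67 and 2.0 FPKM in control cells, 2.57, 2.4 and 2.12 with siRNA 1 and 0.631, 1.06 and 0.98 with siRNA 2, and fell with siRNA 2 (-1.11 ± 0.22, adjusted p = 0.00284). DGUOK, a mitochondrial deoxyguanosine kinase, rose with siRNA 1 (0.48 ± 0.12, adjusted p = 0.0137) and was not called with siRNA 2 (0.22 ± 0.12), except without control replicate 1 (0.34, adjusted p = 0.04). PANK2-AS1 was at 0.679, 0.971 and 0.497 FPKM in control cells and 2.46, 1.97 and 1.57 with siRNA 2 (1.4 ± 0.32), with 75 counts in the control libraries together. PANK2, a pantothenate kinase gene, had -0.53 ± 0.21 there (adjusted p = 0.0632), which passed without control replicate 1 (adjusted p = 0.0423) or control replicate 2 (adjusted p = 0.0313). With siRNA 1 PANK2 was called lower (-0.65 ± 0.21, adjusted p = 0.0345), a call lost under 8 alternatives. GAS5-AS1 was at 0.805, 1.31 and 0.751 FPKM in control cells and 0.45, 0.487 and 0.529 with siRNA 1 (-0.98 ± 0.31). Its sense gene GAS5, a noncoding host of small nucleolar RNAs, rose with both (0.58 ± 0.08, adjusted p = 0.000482, and 0.34 ± 0.08, adjusted p = 0.00591). The GAS5-AS1 value rested on few reads, 183 counts in control cells and 95 with siRNA 1, and was -0.68 without control replicate 2.

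Among the most abundant members, ZNF710-AS1 is given above. FGD5-AS1, at 29.9, 21.2 and 20.4 FPKM in control cells, was at 17.6, 18.6 and 17.7 with siRNA 1 and 24.7, 17.7 and 16.0 with siRNA 2, and neither change was called (-0.43 ± 0.18, adjusted p = 0.087, and -0.35 ± 0.18, adjusted p = 0.147). Without siRNA 2 replicate 1 both were (adjusted p = 0.0365 and 0.0204). Its sense gene FGD5, an endothelial gene, was at or near 0 in all libraries. PITPNA-AS1, which shares 69.9% of its exonic bases with PITPNA, a phosphatidylinositol transfer protein gene, was at 9.09, 8.04 and 8.26 FPKM and then 6.93, 5.6 and 6.08 with siRNA 1 (-0.47 ± 0.13, adjusted p = 0.0205). That call was lost without control replicate 1, siRNA 1 replicate 2 or siRNA 1 replicate 3 (adjusted p = 0.0658, 0.0639 and 0.0527). PITPNA rose there (0.29 ± 0.09, adjusted p = 0.0229) and fell with siRNA 2 (-0.34 ± 0.09, adjusted p = 0.0103), the rise being lost without control replicate 2, control replicate 3, siRNA 1 replicate 1 or siRNA 1 replicate 2 (adjusted p = 0.0529, 0.0762, 0.0502 and 0.0587). ELFN1-AS1, inside a gene that was below 0.3 FPKM in every library, was at 5.18, 6.66 and 4.17 FPKM in control cells, 13.0, 11.4 and 11.2 with siRNA 1 and 8.57, 10.3 and 8.8 with siRNA 2. ELFN1-AS1 rose with both (1.13 ± 0.18, adjusted p = 0.00118, and 0.73 ± 0.18, adjusted p = 0.00793).

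WAC-AS1 overlaps the 5′ end of WAC, a gene whose protein links histone H2B ubiquitination to transcription, and was at 9.12, 9.72 and 8.5 FPKM in control cells, 11.4, 11.5 and 10.2 with siRNA 1 and 8.9, 9.04 and 8.79 with siRNA 2. Only the siRNA 1 libraries lay above control. WAC-AS1 rose by 0.25 ± 0.08 with siRNA 1 (adjusted p = 0.0329), a call lost without control replicate 1, control replicate 3, siRNA 1 replicate 1, siRNA 1 replicate 2 or siRNA 2 replicate 2 (adjusted p = 0.0512 to 0.0981). WAC fell with both (-0.31 ± 0.07, adjusted p = 0.00931, and -0.64 ± 0.07, adjusted p = 0.000132), from 14.2, 14.7 and 15.9 FPKM to 11.6, 11.9 and 13.3 and to 10.1, 10.3 and 9.51.

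By count of calls, more sense genes were lower than higher, while more antisense RNAs were higher than lower. Of 99 tested sense genes, 49 were called with siRNA 1, 16 higher and 33 lower, and 59 with siRNA 2, 20 higher and 39 lower. Lower calls made up 33.3% and 39.4% of them, beside 20.5% and 24.9% of all tested genes, and higher calls 16.2% and 20.2%, beside 21.2% and 24.4%. Their median log2 change was -0.11 and -0.15. With both siRNAs in the same direction 32 were called, 10 higher and 22 lower, or 32.3% against 25.9% of all genes. The shares over all genes are not matched for expression level, and most antisense members lay below their sense gene. Splits by direction also move with scaling: over all genes with siRNA 2, upper quartile scaling gave 3900 higher and 2665 lower, against 3128 and 3200. What level and scaling add to the split of sense and antisense calls was not tested.

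Both partners could be tested in 101 pairs. With siRNA 1, 13 pairs were called in the same direction (3 higher, 10 lower) and 8 in opposite directions, of which 6 had the antisense RNA higher and the sense gene lower. With siRNA 2, 24 were called in the same direction (9 higher, 15 lower) and 10 in opposite directions, all with the antisense RNA higher and the sense gene lower. These counts include members that reached the threshold through 1 group only, such as B3GALT5-AS1, ADIRF-AS1 and FBXL19-AS1, and are given as a description. Same-direction pairs were 12.9% and 23.8%, beside 9.29% and 12.3% of 1518 other pairs of tested genes that overlap on opposite strands, and opposite pairs were 7.92% and 9.9%, beside 5.67% and 7.38%. Of the 101 pairs 17 diverge without overlap, which the other pairs do not. With upper quartile scaling the same-direction pairs split 4 higher and 8 lower with siRNA 1, and 11 higher and 12 lower with siRNA 2.

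The siRNA 1 count of same-direction pairs depended on single libraries: it was 7 without control replicate 1, 6 without control replicate 2 and 6 without siRNA 1 replicate 3. Among the 30 pairs that share no exonic base, 2 were called in the same direction with siRNA 1 and 7 with siRNA 2, and 0 and 3 in opposite directions. Across the 101 pairs, which share their libraries, the log2 changes of antisense RNA and sense gene had a Pearson r of 0.45 with siRNA 1 and 0.57 with siRNA 2 (Spearman 0.25 and 0.33). Without B3GALT5-AS1 the Pearson values were 0.22 and 0.34.

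**Figure D3:**
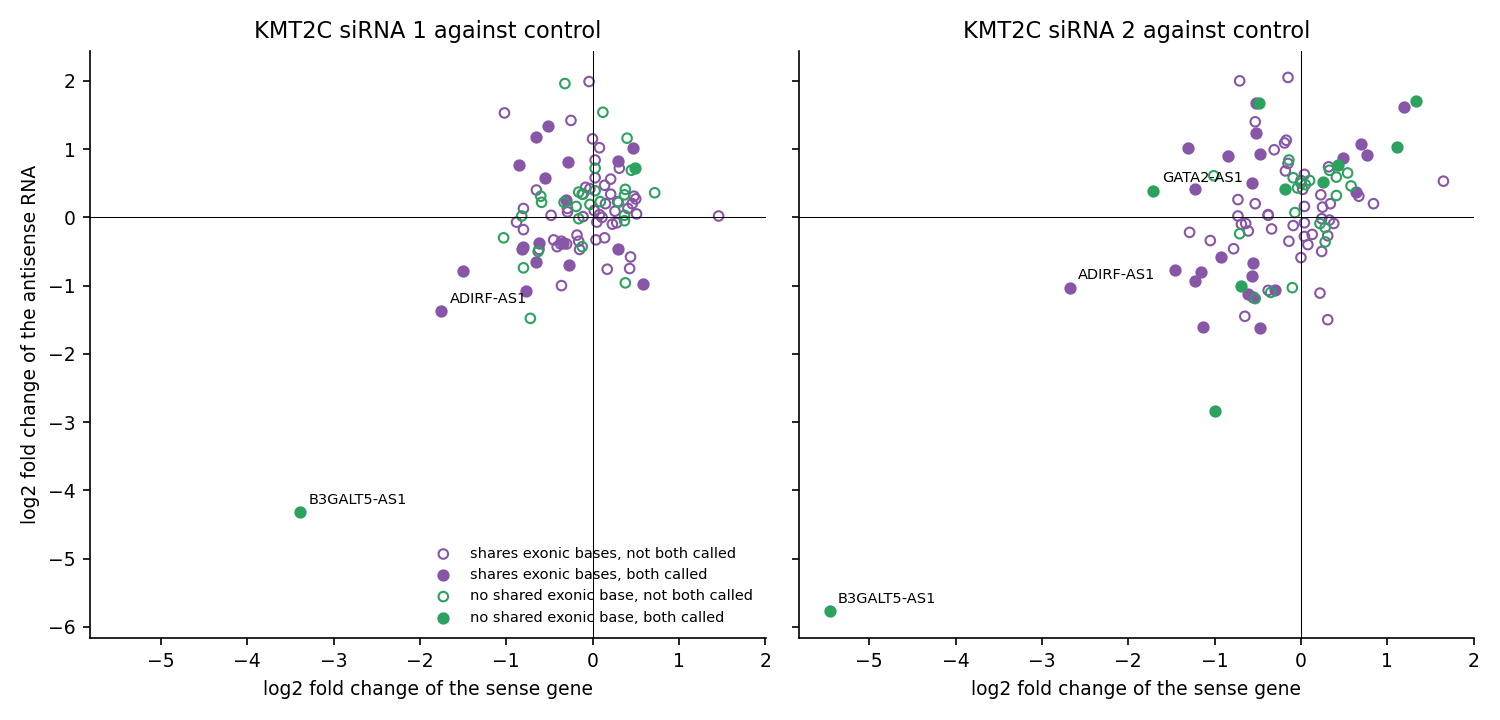
Log2 fold change of the antisense RNA (vertical) against that of its sense gene (horizontal) for 101 pairs, with siRNA 1 on the left and siRNA 2 on the right, filled where both were called and coloured by whether exonic bases are shared. B3GALT5-AS1 and its sense gene sit at the lower left, and with siRNA 2 filled points occupy the upper left of the panel and none the lower right.

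Opposite changes with at least 1 siRNA were called in 14 pairs, and 5 of the 6 with the widest gap are described here. The share among other overlapping pairs is given above per siRNA only, so the 14 are a description. SLC25A25-AS1 (chromosome 9, 128108581 to 128118693, minus strand) runs in over the 3′ end of SLC25A25, a mitochondrial ATP-magnesium and phosphate carrier, and shares 10.4% of its exonic bases with it. The antisense RNA was at 2.18, 1.93 and 2.03 FPKM in control cells, 2.84, 3.31 and 3.22 with siRNA 1, and 4.08, 4.72 and 4.09 with siRNA 2. The sense gene was at 13.8, 12.6 and 14.5, then 9.05, 9.71 and 9.72, then 5.95, 5.75 and 5.38 FPKM. All 3 groups lay apart for both RNAs, in opposite order. SLC25A25-AS1 rose by 0.58 ± 0.09 (adjusted p = 0.00125) and 1.01 ± 0.09 (adjusted p = 3.61e-05). SLC25A25 changed by -0.55 ± 0.07 (adjusted p = 0.00054) and -1.31 ± 0.07 (adjusted p = 2.72e-06).

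GATA2-AS1 (chromosome 3, 128489212 to 128502970, plus strand) overlaps the 5′ end of GATA2, the gene of a zinc finger factor known for roles in blood and prostate cells, and shares no exonic base with it. The antisense RNA had 7.6, 7.19 and 7.3 FPKM in control cells, 6.96, 8.55 and 7.33 with siRNA 1 and 9.95, 9.65 and 10.5 with siRNA 2. GATA2 had 124, 126 and 144, then 80.3, 74.5 and 72.3, then 40.9, 41.2 and 42.9 FPKM. The antisense RNA thus stood apart with siRNA 2 alone, and the sense gene with both siRNAs. GATA2-AS1 rose with siRNA 2 (0.39 ± 0.09, adjusted p = 0.00576) and not with siRNA 1 (0.02 ± 0.09). GATA2 changed by -0.82 ± 0.08 (adjusted p = 0.000107) and -1.71 ± 0.08 (adjusted p = 1.15e-06).

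RAB11B-AS1 (chromosome 19, 8374373 to 8390685, minus strand) overlaps the 5′ end of RAB11B, a small GTPase of recycling endosomes, and 26.5% of its exonic bases are shared with RAB11B. It also touches exons of ANGPTL4. RAB11B-AS1 had 2.42, 2.9 and 2.91 FPKM in control cells, 4.53, 5.34 and 4.84 with siRNA 1 and 6.82, 7.68 and 5.76 with siRNA 2, and RAB11B had 28.7, 28.4 and 30.4, then 26.7, 25.2 and 21.3, then 20.5, 21.7 and 20.9 FPKM. No knockdown library overlapped control in either RNA. The antisense RNA rose by 0.81 ± 0.15 (adjusted p = 0.00285) and 1.24 ± 0.15 (adjusted p = 0.000195), and the sense gene changed by -0.28 ± 0.09 (adjusted p = 0.035) and -0.52 ± 0.09 (adjusted p = 0.00141). The siRNA 1 call of RAB11B was lost under 11 alternatives, with adjusted p from 0.0516 to 0.104, including upper quartile scaling and leaving out any 1 library other than siRNA 1 replicate 1 or siRNA 2 replicate 2.

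FBXL19-AS1 (chromosome 16, 30919319 to 30923269, minus strand) overlaps the 5′ end of FBXL19, an F-box protein gene known for binding CpG islands, over 2.5% of its exonic bases. It was at 0.356, 0.554 and 0.262 FPKM in control cells, 0.895, 0.873 and 0.933 with siRNA 1 and 1.06, 1.37 and 1.5 with siRNA 2, with log2 values of 1.18 ± 0.27 and 1.68 ± 0.27. FBXL19 was at 3.05, 2.63 and 3.19, then 2.11, 1.73 and 1.86, then 2.21, 1.95 and 2.28 FPKM. Its knockdown libraries all lay below control. FBXL19 changed by -0.66 ± 0.12 (adjusted p = 0.00315) and -0.52 ± 0.12 (adjusted p = 0.00818).

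Pairs called in the same direction with both siRNAs numbered 6, among them B3GALT5, ADIRF, LGALS8, TNFRSF10A and ELF3 with their antisense RNAs. No such count over the other overlapping pairs is given, so the 6 are a description. B3GALT5-AS1 and ADIRF-AS1 reached 1 FPKM in control libraries alone. B3GALT5 itself had 9.39, 1.6 and 5.05 FPKM under control siRNA, 0.498, 0.57 and 0.477 with siRNA 1 and 0.131, 0.125 and 0.119 with siRNA 2. The control libraries spread widely and still lay above every knockdown library. The B3GALT5 log2 changes were -3.39 ± 0.53 and -5.46 ± 0.59.

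ADIRF, the adipogenesis regulatory factor gene, was the most abundant of the sense genes described here, at 948, 971 and 955 FPKM in control cells, 329, 274 and 269 with siRNA 1 and 159, 160 and 146 with siRNA 2. Its antisense RNA spans it (chromosome 10, 86965345 to 86971311, minus strand) and shares 16.0% of its exonic bases with ADIRF, besides touching AGAP11. ADIRF-AS1 was at 1.02, 1.13 and 1.26, then 0.457, 0.512 and 0.373, then 0.609, 0.46 and 0.662 FPKM. Both were lower in all knockdown libraries, with siRNA 2 the lowest for ADIRF and not for its antisense RNA. ADIRF changed by -1.75 ± 0.09 (adjusted p = 5.41e-06) and -2.68 ± 0.09 (adjusted p = 3.15e-07), and ADIRF-AS1 by -1.37 ± 0.19 and -1.03 ± 0.19.

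ELF3-AS1 overlaps the 5′ end of ELF3, an epithelial ETS factor gene, and also exons of RNPEP. ELF3-AS1 had 5.2, 5.41 and 5.94 FPKM in control cells, 4.04, 4.12 and 4.3 with siRNA 1 and 1.85, 1.9 and 1.93 with siRNA 2. These groups were narrow and separate, and the changes were -0.44 ± 0.08 (adjusted p = 0.00269) and -1.6 ± 0.08 (adjusted p = 1.63e-06). ELF3 changed by -0.81 ± 0.13 (adjusted p = 0.00166) and -1.14 ± 0.14 (adjusted p = 0.000172). TNFRSF10A, a death receptor for TRAIL, was the one pair of the 6 that rose: the receptor by 0.47 ± 0.1 (adjusted p = 0.00472) and 0.49 ± 0.1 (adjusted p = 0.00268), and TNFRSF10A-AS1 by 1.01 ± 0.26 (adjusted p = 0.0135) and 0.87 ± 0.26 (adjusted p = 0.0215). The TNFRSF10A-AS1 libraries were 1.09, 1.57 and 1.08, then 2.6, 2.66 and 2.46, then 2.67, 1.68 and 2.8 FPKM, and its siRNA 2 call was lost under 6 alternatives (adjusted p = 0.0523 to 0.0733), among them leaving out control replicate 1, control replicate 3, siRNA 2 replicate 1 or siRNA 2 replicate 3.

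LGALS8, the gene of galectin 8, spread widely within groups, with 25.6, 22.4 and 8.51 FPKM in control cells and 3.31, 11.5 and 5.58 with siRNA 1. Its siRNA 1 libraries overlapped control, and its calls (-1.5 ± 0.48, adjusted p = 0.0363, and -1.46 ± 0.48, adjusted p = 0.0336) were lost under 9 and 8 alternatives. With siRNA 1 these included leaving out any 1 library but control replicate 3 or siRNA 1 replicate 2 (adjusted p = 0.0511 to 0.107), and with siRNA 2 leaving out control replicate 1, control replicate 2 or any siRNA 2 library (adjusted p = 0.0719 to 0.103). LGALS8-AS1 was tighter, at 4.06, 4.64 and 3.36, then 2.68, 2.38 and 2.06, then 2.22, 2.68 and 2.42 FPKM, and fell with both (-0.78 ± 0.17, adjusted p = 0.00646, and -0.77 ± 0.17, adjusted p = 0.00516).

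The ratio of antisense to sense counts within a library does not depend on how libraries are scaled, and it was compared between the 6 knockdown and 3 control libraries. In 19 of 100 pairs the 2 sets did not overlap, 15 with a higher and 4 with a lower ratio after knockdown, which is 19.0% against 26.4% of 1501 other overlapping pairs. One pair was left out because a count was 0. For SLC25A25-AS1 the log2 ratio was -2.29, -2.33 and -2.46 in control cells, -1.3, -1.18 and -1.22 with siRNA 1, and -0.17, 0.09 and -0.02 with siRNA 2. With siRNA 2 the antisense counts were thus about level with the sense counts. For GATA2-AS1 it went from -4.65, -4.76 and -4.92 to -4.15, -3.74 and -3.92 and to -2.66, -2.72 and -2.65, and the 3 groups were separate. Of the 12 named pairs 7 had an exact 2-sided permutation p under 0.05 (84 splits, smallest possible p 0.0119). These pairs were named by the same changes, so that count is a description. It was 4 without siRNA 2 replicate 1 or siRNA 2 replicate 3. Each siRNA alone, 3 libraries against 3, cannot go below 0.1.

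**Figure D4:**
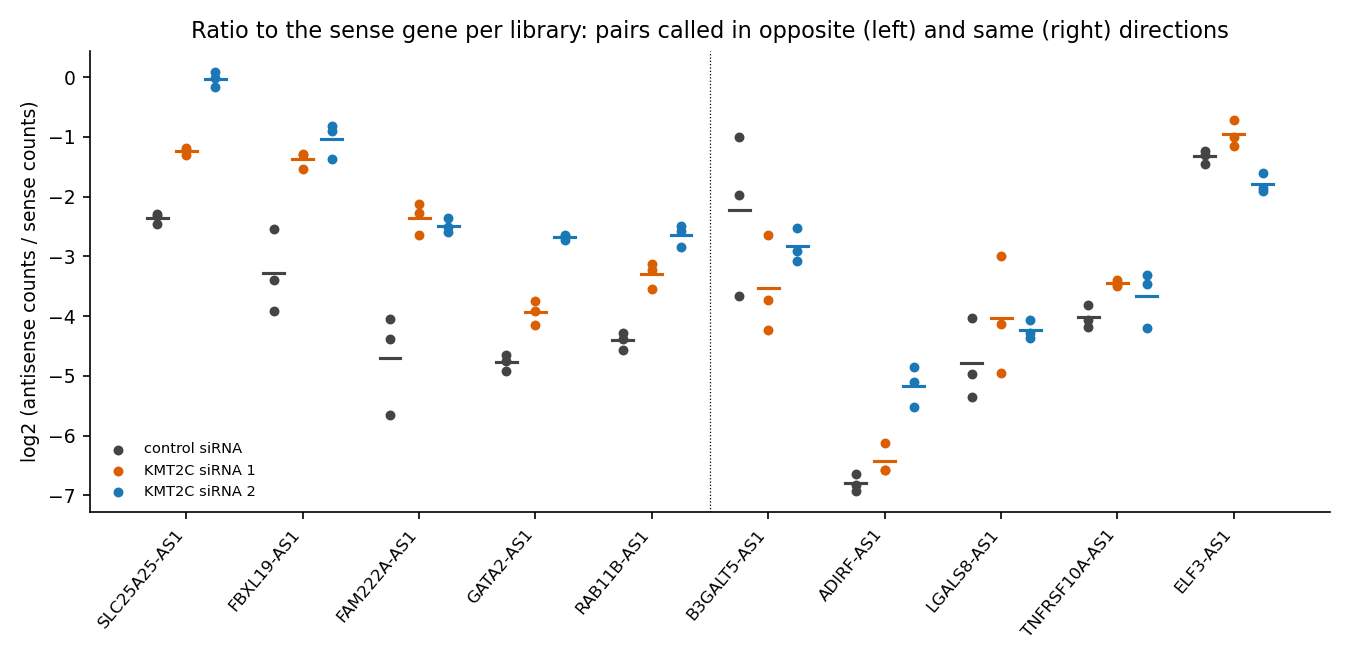
Log2 ratio of antisense to sense counts in each library for 5 pairs called in opposite directions (left) and 5 called in the same direction with both siRNAs (right), 1 point per library and a bar at each group's mean (n = 3). SLC25A25-AS1 climbs from near -2.36 in control cells to -0.04 with siRNA 2, while the ELF3-AS1 means stay between -1.79 and -0.95.

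Over all genes tested, 21.2% rose and 20.5% fell with siRNA 1, and 24.4% rose and 24.9% fell with siRNA 2. Of the 44 antisense RNAs whose 5′ end overlaps that of the sense gene, 13 rose (29.5%) and 5 fell (11.4%) with siRNA 1, and 15 rose (34.1%) and 6 fell (13.6%) with siRNA 2. Of their 38 tested sense genes 6 rose (15.8%) and 16 fell (42.1%) with siRNA 1, and 6 rose (15.8%) and 17 fell (44.7%) with siRNA 2. In the 17 divergent pairs without overlap, 4 antisense RNAs rose and 1 fell with siRNA 1 and 6 rose and 2 fell with siRNA 2, beside sense genes with 3 higher and 2 lower, and 4 higher and 2 lower. Of 28 RNAs inside the sense gene, 6 rose and 7 fell with either siRNA. Where the 3′ ends overlap, 6 rose and 5 fell, then 6 rose and 8 fell, of 25, and of the 21 sense genes 11 fell and 2 rose with siRNA 2. Differences between these position classes were not tested, and the class counts include the 12 members that reached the threshold in 1 group only. Of the 46 members that share no exonic base with any tested gene, 12 rose (26.1%) and 3 fell (6.52%) with siRNA 1, and 16 rose (34.8%) and 7 fell (15.2%) with siRNA 2.

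**Figure D5:**
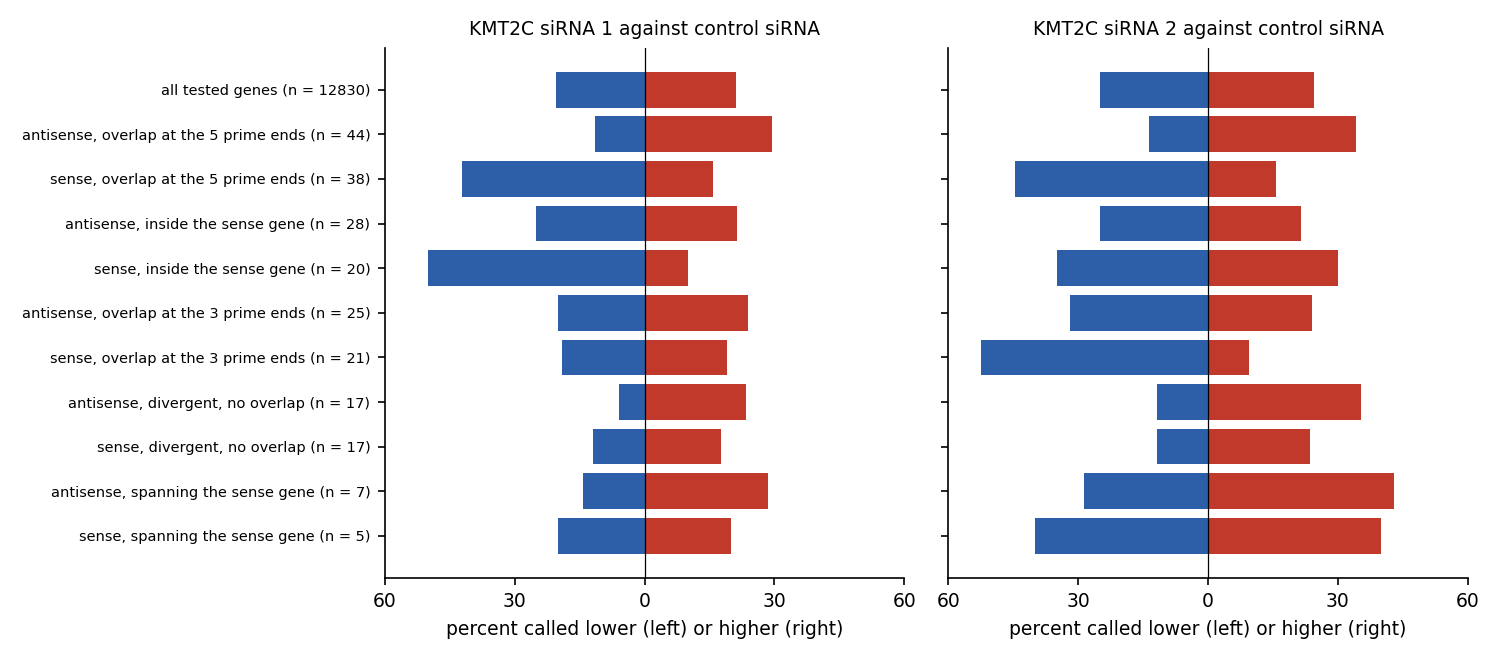
Percent of antisense RNAs and of tested sense genes called higher (right of 0) or lower (left of 0) by their relative position, with all 12830 tested genes at the top, for siRNA 1 and siRNA 2. Where the 5′ ends overlap, 29.5% of antisense RNAs rose and 42.1% of sense genes fell with siRNA 1.

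PAXIP1, whose protein belongs to the complexes of KMT2C and KMT2D, has 2 members on its opposite strand and was chosen for description after its values were seen. PAXIP1-AS1 diverges from its 5′ end, 364 bp away, without overlap, and had 2.89, 2.88 and 2.6 FPKM in control cells, 3.72, 3.4 and 3.88 with siRNA 1 and 5.27, 5.15 and 5.14 with siRNA 2. PAXIP1-AS2 overlaps its 3′ end and had 2.69, 2.21 and 2.6, then 1.81, 2.06 and 2.13, then 2.02, 2.17 and 1.9 FPKM. The first lay above control in all knockdown libraries and the second below. PAXIP1-AS1 rose (0.37 ± 0.1, adjusted p = 0.016, and 0.84 ± 0.1, adjusted p = 0.00016) and PAXIP1-AS2 fell (-0.35 ± 0.1, adjusted p = 0.0231, and -0.35 ± 0.1, adjusted p = 0.0176). PAXIP1 was at 9.58, 8.84 and 9.14 FPKM in control cells and its changes of -0.16 ± 0.07 and -0.14 ± 0.07 were not called (adjusted p = 0.0937 and 0.136).

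Genes that act on antisense RNAs were read from 3 lists. Of 21 genes of the nuclear exosome, which degrades many of these RNAs, and its adaptors, 8 rose and 3 fell with siRNA 1 (52.4%, against 41.7% of all genes) and 5 rose and 2 fell with siRNA 2 (33.3%, against 49.3%), with median log2 changes of 0.21 and 0.08. EXOSC3, a core subunit, was at 4.9, 5.13 and 5.17 FPKM in control cells, 8.79, 7.62 and 7.97 with siRNA 1 and 9.46, 8.99 and 8.81 with siRNA 2, and rose with both (0.66 ± 0.09, adjusted p = 0.000486, and 0.79 ± 0.09, adjusted p = 0.000106). ZCCHC7, of the exosome-activating TRAMP complex, rose by 1.16 ± 0.09 with siRNA 2 (adjusted p = 1.29e-05) and by 0.29 ± 0.09 with siRNA 1 (adjusted p = 0.0268). EXOSC10, a catalytic subunit chosen after its values were seen, changed by -0.33 and -0.51 (adjusted p = 0.024 and 0.00237). It was the 1 gene of the list lower with both siRNAs, beside 5 higher with both. Among those 5 was DIS3, also chosen after its values were seen (0.38, adjusted p = 0.0488, and 0.54, adjusted p = 0.00966). ZCCHC7 with siRNA 1 was lost without control replicate 1, control replicate 2 or siRNA 1 replicate 1 (adjusted p = 0.0881, 0.0581 and 0.0624). The siRNA 1 count of 11 was 7 without control replicate 1 or control replicate 3. With upper quartile scaling, and with none beyond the library total, the siRNA 2 calls split 6 higher and 1 lower.

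Of 25 genes of Integrator and of transcription termination, 6 rose and 4 fell with siRNA 1 (40.0%) and 7 rose and 4 fell with siRNA 2 (44.0%), with medians of 0.03 and -0.1. INTS3 was at 4.89, 4.69 and 5.0 FPKM in control cells, 7.51, 7.93 and 7.38 with siRNA 1 and 9.0, 9.44 and 9.6 with siRNA 2, with no overlap (0.62 ± 0.06, adjusted p = 8.18e-05, and 0.89 ± 0.06, adjusted p = 5.59e-06). INTS10 rose too (0.58 ± 0.09, adjusted p = 0.000971, and 0.73 ± 0.09, adjusted p = 0.000175). Of 19 tested genes that bind, sense or edit double-stranded RNA, 2 rose and 4 fell with siRNA 1 (31.6%) and 2 rose and 8 fell with siRNA 2 (52.6%), with medians of -0.13 and -0.24. Those lower with siRNA 2 included OAS3 (-0.97, adjusted p = 5.6e-06) and OAS1 (-2.12), interferon-induced synthetases named after their values were seen. OAS1 reached 1 FPKM in control libraries alone, so its change is a description, and it is among the 8 counted as lower. The 2 that rose with both siRNAs were DROSHA, the nuclease that frees microRNA hairpins (0.68 ± 0.06, adjusted p = 4.82e-05, and 0.61 ± 0.06, adjusted p = 3.65e-05), and IFIH1, the double-stranded RNA sensor MDA5 (0.84 ± 0.1, adjusted p = 0.000318, and 1.19 ± 0.1, adjusted p = 2.54e-05). IFIH1 was at 1.7, 1.49 and 1.52 FPKM in control cells, 2.8, 2.7 and 3.12 with siRNA 1 and 3.56, 3.56 and 4.11 with siRNA 2. The shares called in the last 2 lists lay near or below those of all genes. The highest, the double-stranded RNA list with siRNA 2, was 10 of 19, or 52.6% against 49.3%.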

How the data were processed

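RNA-seq of 9 VCaP libraries was used, 3 per siRNA, grouped by the labels' treatment. The authors deposited 1 table of estimated counts and FPKM per gene and library, per the file headers. Bowtie 0.12.2 and the builds mm8 and hg38 are named, without roles, in the submitters' processing notes. No label or header names the counter, the strand setting or the annotation. Positions and exons are the GRCh38 ones of GENCODE 29 and of the table, which shared 72.7% of gene starts and ends. FPKM deposited as 0.0001 for genes without counts was read as 0. Low counts pile up at 4 and 8 (11286 values of 4, 4677 of 3, 2524 of 5), so 1 fragment may count more than once.

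The 12830 genes that reached an FPKM of 1 in 3 or more libraries were fitted with edgeR 4.0.16 (quasi-likelihood F test, TMM scaling, 1 mean per group, all 9 libraries, 2-sided, Benjamini-Hochberg over all genes, threshold 0.05) in R 4.3.3, and the procedure was tested on simulated data. Both siRNAs were set against the same 3 control libraries. Whether libraries came from separate cultures is not given, so p-values measure only how far these samples spread, and that spread may be technical. Log2 ratios of antisense to sense counts were compared by exact permutation.

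The members and the gene lists were chosen with earlier results of these data known. Named were the 8 largest rises and 8 largest falls called with both siRNAs (by the smaller change), the 4 largest siRNA differences each way, the 6 members of highest mean FPKM, up to 6 pairs called in opposite directions and 6 in the same direction with both siRNAs, the sense genes of all these, the 2 RNAs on each side of the threshold, 2 genes per list by adjusted p, and KMT2C. Some genes that the naming rule or the marker list holds are not reported here. Promoter sequences are RefSeq's. Alternatives were other scalings (upper quartile, relative log expression, none), no filter, filterByExpr, DESeq2 1.42.0, limma 3.58.1 on log2(FPKM + 1) and log2(FPKM + 0.1), counts divided by 4, the groups compared alone, a replicate block, and leaving out each library.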

Additional observations from a re-analysis of the deposited data

Results flagged for a closer look

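These results were singled out because the effects of the 2 KMT2C siRNAs, against the same control libraries, differed in the edgeR test of siRNA 1 against siRNA 2 (adjusted p under 0.05). Values are siRNA 1 minus siRNA 2 on the log2 scale. Among antisense RNAs higher with siRNA 1 than with siRNA 2, BCAR3-AS1 had 2.01, B3GALT5-AS1 1.45, DGUOK-AS1 1.42, ELF3-AS1 1.16, ZNF710-AS1 1.15, TMPO-AS1 0.44 and WAC-AS1 0.34. Among those lower with siRNA 1, DLX6-AS1 had -1.49, GAS5-AS1 -1.17, SEMA6A-AS1 -1.06, RNF32-AS1 -1.0, PANK2-AS1 -1.0, SLC25A25-AS1 -0.43, RAB11B-AS1 -0.43 and GATA2-AS1 -0.37. B3GALT5-AS1, DLX6-AS1, SEMA6A-AS1 and RNF32-AS1 reached 1 FPKM in libraries of 1 group only, PANK2-AS1 in no control library and GAS5-AS1 in no siRNA 1 library, so their differences are a description.

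Sense genes differed too. B3GALT5 had 2.07, ADIRF 0.94, GATA2 0.89, SLC25A25 0.77, PITPNA 0.63, BCAR3 0.59, WAC 0.33, ZNF710 0.32 and GAS5 0.25, and DLX6 had -1.66, VLDLR -1.11 and SEMA6A -0.82. B3GALT5 reached 1 FPKM in control libraries alone, so its difference is a description too. KMT2C itself did not pass that test (adjusted p = 0.309). For B3GALT5, BCAR3, ZNF710, DLX6, SEMA6A and WAC, the antisense RNA and the sense gene differed between the siRNAs in the same direction. For GATA2, SLC25A25 and GAS5 they differed in opposite directions. Of all 101 pairs, 11 were called in the same direction in this test (10.9%) and 7 in opposite directions (6.93%). Among the 1518 other pairs that overlap on opposite strands these shares were 7.51% and 5.93%.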

How the results depend on the processing

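Counts of called antisense RNAs were 32 to 56 with siRNA 1 and 50 to 69 with siRNA 2 over the alternatives that keep all libraries, and 36 to 49 and 49 to 63 when 1 library was left out. The siRNA 1 count of 50 was 32 without the filter. Called sense genes were 43 to 52 and 48 to 61, or 41 to 49 and 47 to 57 with 1 library left out. Same-direction calls with both siRNAs were 23 to 35 (25 to 31) and calls between the siRNAs 29 to 41 (31 to 38).

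Of pairs called in the same direction, the 13 with siRNA 1 were 6 without the filter, 8 with only the groups compared, 2 without exon overlap, 2 among pairs sharing no exonic base with any tested gene (chosen after seeing the data), and 6 to 12 with 1 library left out. With siRNA 2 the 24 pairs were 15 without the filter, 7 without exon overlap, 6 with no base shared with any tested gene, and 16 to 23 with 1 library left out. The exon overlap alternatives hold fewer pairs by construction, and otherwise the cause was not tested. The 11 exosome calls with siRNA 1 were 5 without the filter and 7 to 10 with 1 library left out. The 7 named pairs with a ratio p under 0.05 were 4 to 6 with 1 library left out.

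Same-numbered libraries did not deviate together (correlations of -0.069 to 0.039). That gives no sign of a pairing, but it cannot show that the numbers do not pair the samples. With the replicate block, 45 and 56 antisense RNAs, 47 and 52 sense genes and 12 and 16 pairs were called, 29 with both siRNAs and 35 between them. In the same block 8 and 7 exosome, 8 and 11 Integrator and 6 and 9 double-stranded RNA genes were called, and KMT2C changed by -2.9 on average. Of the values for single genes and pairs under alternatives, 2594 stayed on their side of the threshold, 122 no longer passed it, 16 newly passed it, and none changed direction past it. Group totals of members went down to 60 counts (B3GALT5-AS1, siRNA 2), which limits their precision.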
